A study of Saccharomyces cerevisiae with 22 samples.

Results

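Glutathione is the small thiol that budding yeast keeps at high level to reduce peroxides and to repair oxidised protein thiols. It is made in a pair of steps, by Gsh1 and then by Gsh2, and the oxidised form is reduced again by Glr1 with NADPH. Glutathione peroxidase-like enzymes (Gpx1, Gpx2 and Hyr1) remove peroxides, and the dithiol glutaredoxins Grx1 and Grx2 use glutathione to reduce disulfides. The transcription factors Yap1 and Skn7 are known to drive many genes of this system under peroxide, and Msn2 and Msn4 drive general stress genes. The results below follow the transcripts of these 8 genes, GSH1, GSH2, GLR1, GPX1, GPX2, HYR1, GRX1 and GRX2. They were taken by symbol from the array's annotation, which gives 1 probe set for each, out of 5449 genes measured.

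Total RNA of Saccharomyces cerevisiae strain 4741, grown in rich medium (YPD) at 30 °C to mid-log phase, was read on 22 Affymetrix arrays. The first stress was one of 3: heat at 40 °C (30 and 45 min), 0.8 M KCl (30 and 45 min) and 0.66 mM hydrogen peroxide (15, 30, 45 and 90 min), the last called naive peroxide here. After 45 min of heat or KCl, cells went either into the same peroxide dose (heat-primed or KCl-primed peroxide, 15, 30, 45 and 90 min each) or back into rich medium (15 and 45 min each). The reference was 2 untreated arrays, a and b. Each condition and time has 1 array, the untreated pair is the only repeat, and separate cultures are not stated, so the p-values here rest on array-to-array spread that may be technical.

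All values are log2 expression values per probe set as the authors deposited them, and a difference of 1 is 2-fold. Array medians lay between 10.16 and 10.22, the untreated pair differed with an SD of 0.142 across genes, and all 8 genes were above the background of 4.62 on every array. As a check of the strain, the 5 mating type a markers STE2, MFA1, MFA2, BAR1 and AGA2 were above background on 22 arrays. The alpha pheromone gene MFALPHA1 was above it on 0 arrays, although STE3, MFALPHA2 and SAG1 were above it on 22. SAG1, a mating type alpha marker, ran from 8.24 to 8.85, over the 7.69 and 7.77 of GPX1 in untreated cells. A level above 4.62 therefore need not mean that a gene is expressed. Whether GPX1 in untreated cells lies near the floor was not tested. Of 4 auxotrophic marker genes, HIS3 was above background on 22 arrays, MET17 on 5, LEU2 on 3 and URA3 on 0. MET17, which makes homocysteine in the sulfur assimilation route that leads to cysteine and glutathione, had levels between 4.0 and 4.80.

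**Figure D1:**
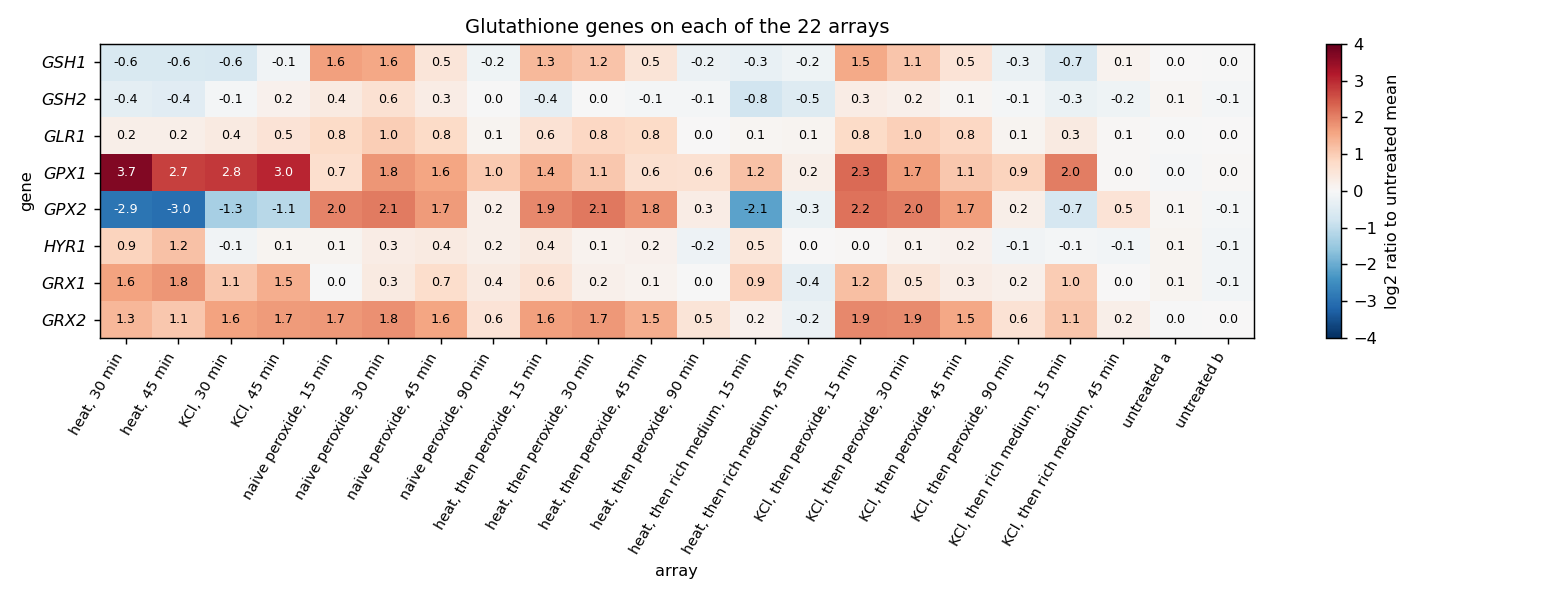
Each cell gives the log2 ratio of a gene (rows) to the mean of the untreated pair on 1 of the 22 arrays (columns, grouped by condition with time in min). GPX2 ran from -3.03 in heat at 45 min to 2.17 in KCl-primed peroxide at 15 min, and GPX1 reached 3.72 in heat at 30 min.

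The 8 transcripts did not answer the 3 first stresses as a block. GPX1 and GRX2 rose in heat, in KCl and in naive peroxide, while GPX2 rose in peroxide and fell in heat and in KCl. GRX1 rose in heat and KCl, GLR1 in KCl and peroxide, and HYR1 in heat. GSH1 and GSH2 passed the test in none of the 3 stresses at 30 and 45 min. Heat moved 5 of the 8 (4 higher, 1 lower), where 49.9% of all genes were called (27.5% higher, 22.4% lower). KCl also moved 5 (4 higher, 1 lower), where 56.2% were called (30.2% higher, 26% lower). Naive peroxide moved 4, all higher, where 18.4% of all genes were called and 11.2% were called higher. In heat and KCl the share of members called was near that of all genes. The median difference of the 8 was 0.62 in heat, 0.25 in KCl and 0.94 in peroxide, against 0.07, 0.03 and -0.03 over all genes. The tests were limma fits over all genes with Benjamini-Hochberg adjustment, with a threshold of 0.05 and 2 arrays in each group. The groups did not overlap for 8 of 8 genes in heat, 6 in KCl and 8 in peroxide, where 84.6%, 82% and 76.5% of all genes did not overlap. Without untreated a, without untreated b or without peroxide at 30 min, the 4 calls in peroxide became 2 each time. GLR1 and GPX1 then missed the threshold, at adjusted p values from limma of 0.0623 to 0.0963. With all 4 peroxide times in the group, or with all 22 arrays in 1 fit, 0 of the 4 passed. The fit of all 22 arrays had no time term, and its peroxide group also held all 4 times.

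**Figure D2:**
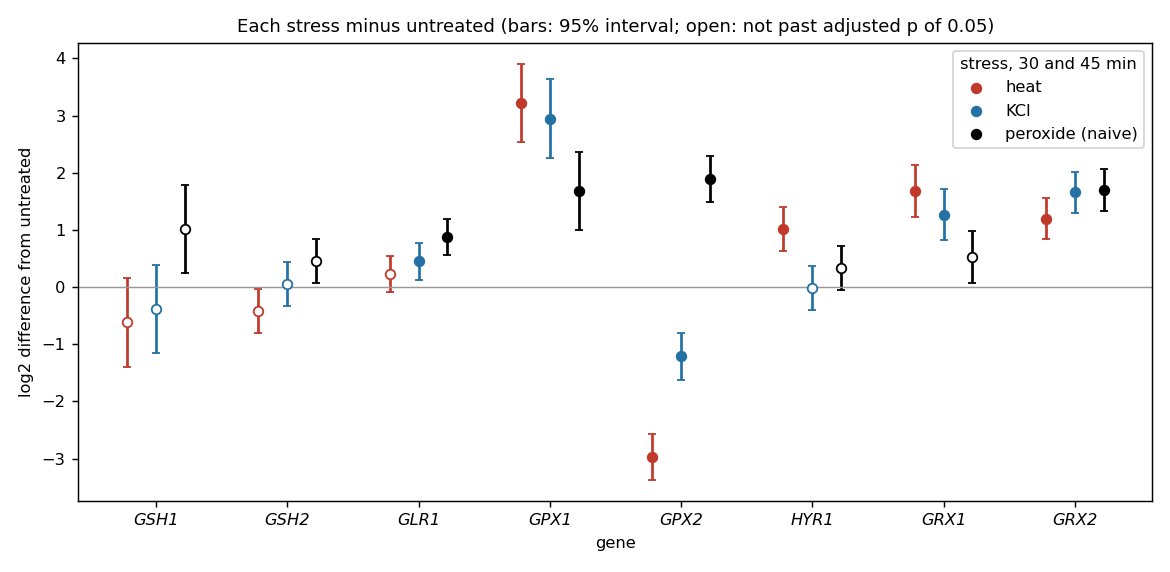
Points give the log2 difference of heat, KCl and naive peroxide (30 and 45 min, 2 arrays each) from the 2 untreated arrays for each gene, with 95% intervals from limma. Filled points passed an adjusted p of 0.05: GPX2 lies at -2.97 in heat and at 1.89 in peroxide, and GSH1 is open in all 3 stresses.

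GSH1 encodes gamma-glutamylcysteine synthetase, the first and rate-limiting enzyme of glutathione synthesis. Its level in naive peroxide was 12.76, 12.67, 11.59 and 10.94 at 15, 30, 45 and 90 min, against 11.15 and 11.09 in untreated cells. The first 3 peroxide arrays lay above both untreated arrays and the last lay below both. In heat GSH1 read 10.50 and 10.50, and in KCl 10.49 and 10.98, all under the untreated pair. The level on an array cannot tell less transcript in every cell from fewer cells holding it. At 30 and 45 min the difference of peroxide from untreated cells was 1.01 ± 0.33 (SE, n = 2 arrays per group, adjusted p = 0.0717 in limma), where the peroxide arrays stood 1.55 and 0.48 above the untreated mean. Taking 15 and 30 min in its place gave 1.60 (adjusted p = 0.00633), and leaving out 45 min gave 1.55 (adjusted p = 0.0156). Set directly against peroxide, GSH1 was 3.09-fold lower in heat (log2 -1.63 ± 0.33, adjusted p = 0.0152) and 2.63-fold lower in KCl (-1.40 ± 0.33, adjusted p = 0.0137). Those calls missed the threshold without heat at 30 min (adjusted p = 0.0755) and without KCl at 30 min (0.0643), and the KCl call also with all 22 arrays in 1 fit (0.0617).

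GSH2, glutathione synthetase, which adds glycine in the second step, moved within a narrow band. Naive peroxide gave 11.97, 12.22, 11.88 and 11.59 at its 4 times, heat gave 11.20 and 11.16, and KCl 11.53 and 11.77, against 11.67 and 11.53 in untreated cells. Peroxide up to 45 min lay above the untreated pair, heat below it, and KCl overlapped it. No array was 2-fold from the untreated mean. The difference from untreated cells was -0.42 ± 0.17 in heat (adjusted p = 0.0696 in limma) and 0.45 ± 0.17 in peroxide (adjusted p = 0.0948), and heat against peroxide gave -0.87 ± 0.17 (adjusted p = 0.0122). That call missed the threshold without heat at 30 min and without peroxide at 30 min (adjusted p = 0.0569 and 0.0666).

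GLR1, glutathione reductase, rose 1.84-fold in naive peroxide (log2 0.88 ± 0.14, adjusted p = 0.00797 in limma, n = 2 arrays per group). Its level was 13.46, 13.69, 13.48 and 12.81 at 15, 30, 45 and 90 min, against 12.69 and 12.72 in untreated cells. The peroxide arrays were all above the untreated pair, by least at 90 min. In KCl it was 13.07 and 13.24, a rise of 0.45 ± 0.14 (adjusted p = 0.0256) that missed the threshold without either untreated array, without KCl at 45 min or with all 22 arrays in 1 fit. In heat it was 12.94 and 12.93 (difference 0.23 ± 0.14, adjusted p = 0.197). GLR1 was lower in heat than in peroxide (log2 -0.65 ± 0.14, adjusted p = 0.0172), which missed the threshold without heat at 30 min or peroxide at 30 min (adjusted p = 0.0737 and 0.0906) and with all 22 arrays in 1 fit (0.211). Over the 22 arrays its whole range was 1.0, the narrowest of the 8.

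The 3 peroxidase genes had 3 different patterns. GPX1 encodes a phospholipid hydroperoxide peroxidase. It read 11.44 and 10.46 in heat, 10.57 and 10.77 in KCl, and 8.39, 9.51, 9.31 and 8.77 in naive peroxide at 15, 30, 45 and 90 min, against 7.69 and 7.77 in untreated cells. Every stress array was above both untreated arrays, and heat and KCl stood above all naive peroxide arrays. GPX1 rose 9.33-fold in heat (log2 3.22 ± 0.29, adjusted p = 0.000344 in limma), 7.69-fold in KCl (2.94 ± 0.29, adjusted p = 0.000225) and 3.21-fold in peroxide (1.68 ± 0.29, adjusted p = 0.0120). Heat against peroxide was 1.54 ± 0.29 (adjusted p = 0.0124) and KCl against peroxide 1.26 ± 0.29 (adjusted p = 0.0128). The heat call missed the threshold without peroxide at 30 or 45 min (adjusted p = 0.0514 and 0.0664), and the KCl call without KCl at 45 min or peroxide at 45 min (0.0530 and 0.0703). Heat and KCl were not separated (0.28, 95% interval -0.41 to 0.97, adjusted p = 0.500), and without heat at 45 min heat was higher by 0.77 (adjusted p = 0.0381). In peroxide GPX1 was 0.66 above the untreated mean at 15 min and 1.78 above it at 30 min, and the 15 and 30 min pair gave 1.22 (adjusted p = 0.192).

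GPX2, the second phospholipid hydroperoxide peroxidase gene of the family, went opposite ways. It read 8.74 and 8.62 in heat, 10.33 and 10.55 in KCl, and 13.63, 13.73, 13.35 and 11.88 in naive peroxide, against 11.74 and 11.57 in untreated cells. The 4 groups did not overlap. GPX2 fell 7.84-fold in heat (log2 -2.97 ± 0.17, adjusted p = 8.66e-05 in limma) and 2.32-fold in KCl (-1.21 ± 0.17, adjusted p = 0.00101), and rose 3.70-fold in peroxide (1.89 ± 0.17, adjusted p = 0.00116). Heat against peroxide was 29.0-fold lower (log2 -4.86 ± 0.17, adjusted p = 3.99e-05), which ranked 3 by size among the 5449 genes, and KCl against peroxide was 8.59-fold lower (-3.10 ± 0.17, adjusted p = 0.000115). Heat was also 3.38-fold lower than KCl (-1.76 ± 0.17, adjusted p = 0.00122). The call in peroxide was lost with all 4 peroxide times in the group (1.49, adjusted p = 0.192), which takes in the array at 90 min. With all 22 arrays in 1 fit GPX2 missed the threshold in peroxide (adjusted p = 0.295), in KCl (0.190) and in heat against KCl (0.102). That fit also holds all 4 peroxide times, and its spread takes in the change between times of every series.

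HYR1, also named GPX3, is the peroxidase that passes the peroxide signal to Yap1. It read 12.80 and 13.08 in heat, 11.79 and 12.02 in KCl, and 12.02, 12.21, 12.29 and 12.16 in naive peroxide, against 12.03 and 11.81 in untreated cells. Both heat arrays were above every array of the other 3 groups, and KCl overlapped the untreated pair. HYR1 rose 2.03-fold in heat (log2 1.02 ± 0.16, adjusted p = 0.00248 in limma) and was higher in heat than in KCl by 1.04 ± 0.16 (adjusted p = 0.00528). In peroxide its difference was 0.33 ± 0.16 (adjusted p = 0.191), and heat against peroxide was 0.69 ± 0.16 (adjusted p = 0.0235). That last call missed the threshold without heat at 45 min, peroxide at 30 min or peroxide at 45 min (adjusted p = 0.0753 to 0.106).

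The glutaredoxin pair also differed. GRX1 read 13.12 and 13.27 in heat, 12.59 and 12.97 in KCl, and 11.50, 11.86, 12.22 and 11.88 in naive peroxide, against 11.62 and 11.41 in untreated cells. Heat and KCl lay above all naive peroxide arrays, and peroxide at 15 min lay inside the untreated pair. GRX1 rose 3.20-fold in heat (log2 1.68 ± 0.19, adjusted p = 0.000753 in limma) and 2.40-fold in KCl (1.27 ± 0.19, adjusted p = 0.00130), while peroxide gave 0.52 ± 0.19 (adjusted p = 0.0941). Heat against peroxide was 1.15 ± 0.19 (adjusted p = 0.00768) and KCl against peroxide 0.74 ± 0.19 (adjusted p = 0.0185). The KCl call missed the threshold without KCl at 45 min or peroxide at 30 min (adjusted p = 0.0699 and 0.106).

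GRX2, the glutaredoxin known from cytosol and mitochondria, read 13.24 and 12.98 in heat, 13.52 and 13.62 in KCl, and 13.66, 13.74, 13.49 and 12.47 in naive peroxide, against 11.89 and 11.93 in untreated cells. Every one of these 8 stress arrays was above both untreated arrays. GRX2 rose 2.29-fold in heat (log2 1.20 ± 0.15, adjusted p = 0.00111 in limma), 3.15-fold in KCl (1.66 ± 0.15, adjusted p = 0.000167) and 3.25-fold in peroxide (1.70 ± 0.15, adjusted p = 0.00111). The call in peroxide was lost with all 4 peroxide times (adjusted p = 0.145) and with all 22 arrays in 1 fit (0.256), and that in heat with all 22 arrays (0.0534). KCl and peroxide differed by -0.04 (95% interval -0.40 to 0.32, adjusted p = 0.839). Heat against peroxide was -0.50 ± 0.15 (adjusted p = 0.0504), which passed with peroxide at 15 and 30 min (-0.59, adjusted p = 0.0278). On the same times it passed with arrays shifted to a common median (adjusted p = 0.0463 in limma). It also passed without the dimmest 25% of genes (0.0469) and with trend and robust variance (0.0373). These were 4 of 12 alternatives.

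Counted by direct comparison, heat differed from naive peroxide for 7 of the 8 genes (3 higher, 4 lower), where 25.5% of all genes were called (14.8% higher, 10.6% lower). KCl differed from peroxide for 5 (2 higher, 3 lower), where 42.3% were called (23.5% higher, 18.8% lower), and heat from KCl for 2, where 30.6% were called. GPX1, GRX1 and HYR1 were higher in heat than in peroxide, and GSH1, GSH2, GLR1 and GPX2 were lower. The heat and peroxide count was 4 without heat at 30 min and 3 without peroxide at 30 min, and the KCl and peroxide count was 3 without any 1 of its 4 arrays. GPX2 stayed past the threshold in both of these comparisons under every alternative tried.

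Other genes that use or feed glutathione were counted from lists chosen with earlier results of these data known. Of 9 glutathione transferase and related genes, 5 rose in naive peroxide, 4 rose and 1 fell in heat, and 4 rose and 1 fell in KCl. Over all genes 18.4% were called in peroxide, 49.9% in heat and 56.2% in KCl, so the 5 of 9 in heat and in KCl were near those shares. The largest rises in peroxide were those of ECM4, an omega class transferase (log2 4.31 ± 0.25), and GTT2, a glutathione transferase (4.23 ± 0.34). In glutathione breakdown and transport 9 of 10 genes were measured, and 3 rose in peroxide. These were ECM38, gamma-glutamyltranspeptidase (1.76 ± 0.14), YCF1, the vacuolar pump for glutathione conjugates (0.99 ± 0.14), and GCG1, a cytosolic glutathione-degrading enzyme (0.58 ± 0.14). In heat 2 genes of this list rose, ECM38 (1.40 ± 0.14) and GCG1 (1.11 ± 0.14), and 1 fell. In KCl 0 rose and 2 fell. OPT1, the plasma membrane glutathione transporter gene, fell in heat (-1.12 ± 0.19) and in KCl (-1.24 ± 0.19), and YCF1 fell in KCl (-0.52 ± 0.14). Of the 6 other glutaredoxin genes, 1 fell in peroxide (GRX4, a monothiol glutaredoxin of iron sensing, -1.0 ± 0.28), 2 rose in heat and 2 in KCl, where GRX7, a Golgi glutaredoxin, was at 1.64 ± 0.18.

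In cysteine and sulfate supply, 2 of 20 genes rose in peroxide, 2 rose and 3 fell in heat, and 2 rose and 8 fell in KCl. MET3, ATP sulfurylase, was at 1.46 ± 0.12 in peroxide. The largest differences in KCl were those of SAM1 (-2.18 ± 0.50), MET28 (2.02 ± 0.42) and MET6, methionine synthase (-1.78 ± 0.22). In NADPH supply, which serves Glr1, 4 of 12 rose in peroxide. They were led by SOL4, a 6-phosphogluconolactonase (3.76 ± 0.34), GND2 (1.72 ± 0.33) and ZWF1, glucose-6-phosphate dehydrogenase (1.58 ± 0.22). In heat 5 rose and 2 fell, and in KCl 4 rose and 3 fell, with SOL4 at 5.15 ± 0.34 and 5.51 ± 0.34. Of 5 genes of glutathione-dependent detoxification 2 rose in peroxide, 3 in heat and 4 in KCl, led in KCl by GLO1, glyoxalase I (2.0 ± 0.23). The 7 of 12 NADPH genes called in heat and in KCl were near the shares of all genes called, 49.9% and 56.2%, and the 2 of 20 sulfur genes called in peroxide were a smaller share than its 18.4%.

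Of 13 thioredoxin and peroxiredoxin genes 7 rose in peroxide, 7 rose and 2 fell in heat, and 4 rose and 2 fell in KCl. TSA2, a peroxiredoxin, and SRX1, sulfiredoxin, led in peroxide at 5.83 ± 0.37 and 5.63 ± 0.55. Of all genes 18.4% were called in peroxide, 49.9% in heat and 56.2% in KCl. Of 6 genes for other peroxide and superoxide removal 3 rose in each stress, with 1 falling in heat and in KCl. The 3 were SOD2, CCP1 and SOD1 in peroxide, and CTT1, CCP1 and SOD2 in KCl. CTT1 had the largest rise in heat (4.54 ± 0.83) and in KCl (6.69 ± 0.83), and was not among the 3 called in peroxide. Its excess in KCl over peroxide was smaller than its rise in KCl, so in peroxide it also stood above untreated cells. With so wide an SE, the missed threshold does not show that CTT1 was unchanged in peroxide. Among 8 regulators 2 rose and 1 fell in peroxide, where YAP1 was at 1.32 ± 0.20 and SKN7 at -0.68 ± 0.13. In heat 3 rose and 1 fell, and in KCl 6 rose and 1 fell, with CIN5, a Yap family factor, at 3.67 ± 0.55 and MSN2 at 1.40 ± 0.16. The list medians in peroxide lay between 0.15 for the other glutaredoxins and 1.58 for other peroxide and superoxide removal, against -0.03 over all genes. In heat-primed against naive peroxide 1 gene of all these lists passed, where 3.34% of all genes were called. It was CAD1 of the Yap family (-0.58, adjusted p = 0.0470 in limma). In KCl-primed against naive peroxide 0 passed, where 0.147% of all genes were called.

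The primed series asked what an earlier stress changes in the response to peroxide. Over the 4 matched times 0 of the 8 genes passed in heat-primed against naive peroxide (limma, 3.34% of all genes called), in KCl-primed against naive peroxide (0.147% called) or between the primed series (0.128% called). At an unadjusted p under 0.05 the counts were 1, 0 and 0 of 8, where 31%, 18.7% and 20.4% of all genes had one, and the groups overlapped for all 8 genes each time, where 8.17%, 5.05% and 6.55% of all genes did not overlap.

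GPX2 came to nearly the same level from unlike starts. At the end of 45 min of priming it stood at 8.62 in heat and 10.55 in KCl, and after 15 min in peroxide it read 13.57 in heat-primed, 13.83 in KCl-primed and 13.63 in naive cells. From the end of heat to 15 min in peroxide it was 30.8-fold higher and from the end of KCl 9.67-fold higher, by 1 array each, with no test. The later heat-primed values were 13.75, 13.45 and 11.95, and the KCl-primed ones 13.69, 13.32 and 11.88, against 13.73, 13.35 and 11.88 in naive cells at 30, 45 and 90 min. The difference over 4 times was 0.03 in heat-primed (95% interval -0.15 to 0.22) and 0.03 in KCl-primed cells (-0.15 to 0.21) against naive cells.

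GRX2 and GLR1 had somewhat narrower intervals. GRX2 read 13.55, 13.66, 13.37 and 12.44 in heat-primed and 13.85, 13.80, 13.46 and 12.49 in KCl-primed peroxide, differences of -0.08 (95% interval -0.24 to 0.08) and 0.06 (-0.10 to 0.22) from naive peroxide. GLR1 read 13.29, 13.55, 13.46 and 12.73 in heat-primed and 13.46, 13.66, 13.55 and 12.82 in KCl-primed peroxide. Its differences were -0.10 (95% interval -0.25 to 0.04) and 0.01 (-0.13 to 0.16). These intervals show the size of difference that the arrays could still hold.

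GSH1 had its highest values at 15 min in all 3 series. It read 12.43, 12.27, 11.64 and 10.87 in heat-primed and 12.63, 12.24, 11.65 and 10.87 in KCl-primed peroxide. At 30 min both primed arrays were lower than the naive one, by -0.40 and -0.44 on the log2 scale, and at 45 min they differed from it by 0.04 and 0.06. The difference over 4 times was -0.19 (95% interval -0.41 to 0.03, adjusted p = 0.222 in limma) and -0.14 (-0.37 to 0.08, adjusted p = 0.453).

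GSH2 was the gene of the 8 with the lowest p in heat-primed against naive peroxide. It read 11.24, 11.60, 11.53 and 11.52 in heat-primed peroxide, and the differences from naive cells were -0.74, -0.63, -0.35 and -0.07 at 15, 30, 45 and 90 min. All 4 were below 0. The fit gave -0.45 ± 0.12 (unadjusted p = 0.00596, adjusted p = 0.0646 in limma, n = 4 arrays per group). It passed without the naive array at 90 min (adjusted p = 0.0354), without the heat-primed array at 90 min (0.0303) and without that time in all groups (0.0359). The KCl-primed series read 11.91, 11.80, 11.68 and 11.51 (difference -0.19 ± 0.12, adjusted p = 0.437).

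GPX1 and GRX1, both high at the end of priming, crossed the naive series in time. GPX1 read 9.17, 8.80, 8.38 and 8.34 in heat-primed and 10.004, 9.39, 8.81 and 8.63 in KCl-primed peroxide. Heat-primed minus naive was 0.78 at 15 min and then -0.71, -0.94 and -0.43, and KCl-primed minus naive was 1.61 and then -0.11, -0.51 and -0.14. The primed arrays were higher at 15 min and lower at the 3 later times. Without the 15 min arrays heat-primed GPX1 was lower by -0.69 (adjusted p = 0.0381 in limma), whereas over all 4 times it was -0.32 ± 0.30 (adjusted p = 0.509).

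GRX1 read 12.10, 11.71, 11.65 and 11.49 in heat-primed and 12.71, 12.04, 11.82 and 11.72 in KCl-primed peroxide. Heat-primed minus naive was 0.60, -0.15, -0.57 and -0.39, and KCl-primed minus naive was 1.21, 0.18, -0.40 and -0.16. In naive cells GRX1 had its highest value at 45 min, and in both primed series at 15 min. HYR1 read 12.28, 12.06, 12.10 and 11.73 in heat-primed and 11.95, 12.05, 12.08 and 11.79 in KCl-primed peroxide, and both primed arrays at 90 min were lower than the naive one, by -0.43 and -0.37. Its differences over 4 times were -0.13 ± 0.10 and -0.20 ± 0.10 (adjusted p = 0.437 and 0.342).

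**Figure D3:**
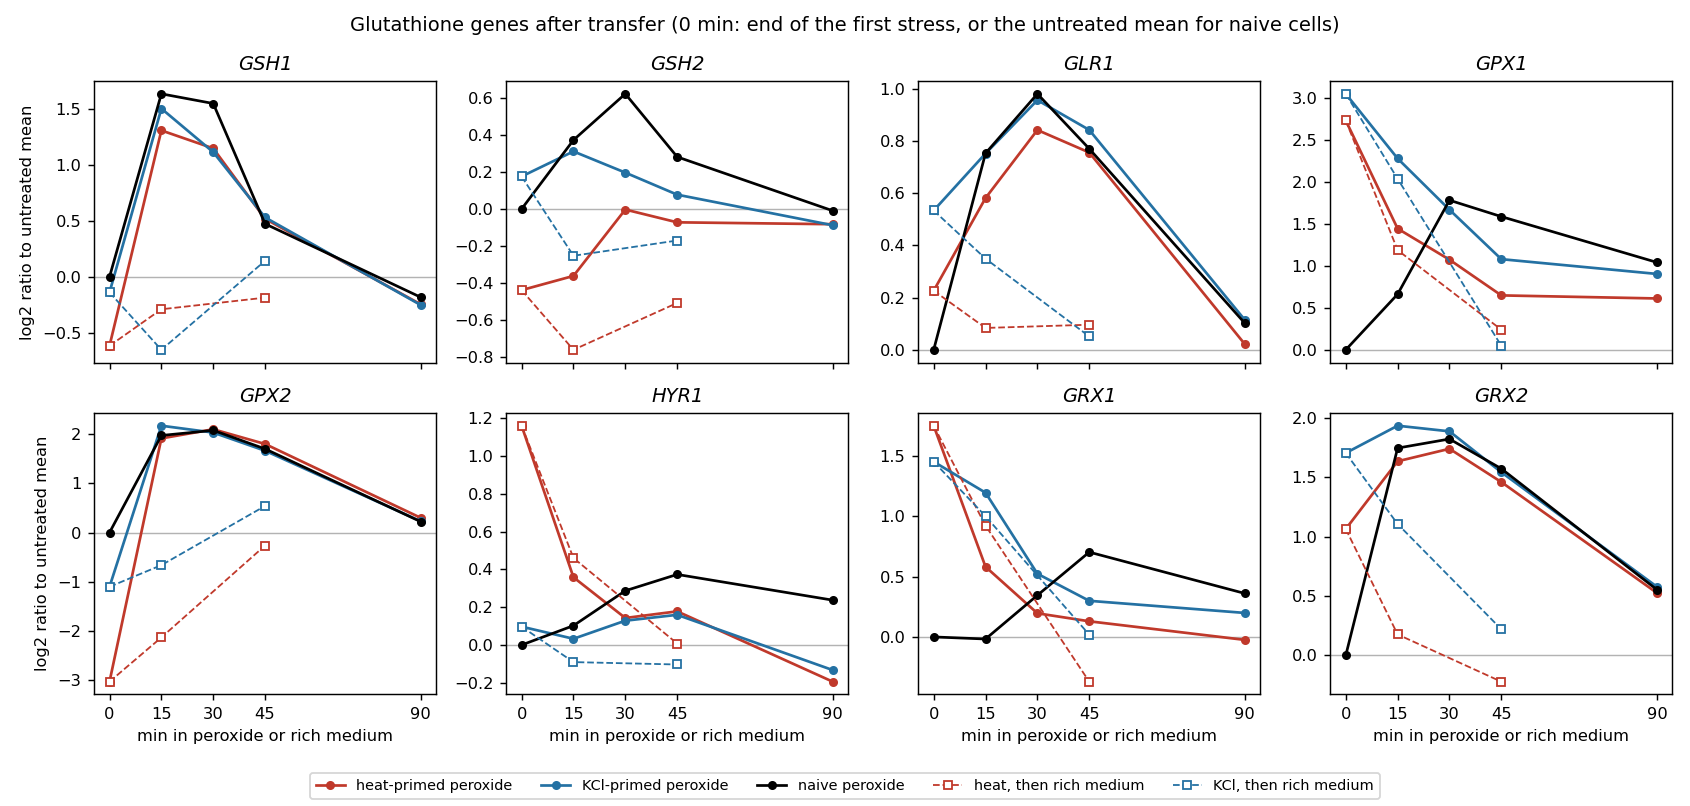
Each panel gives the log2 ratio of 1 gene to the untreated mean (vertical axis, own scale per panel) by time in peroxide (solid lines) or rich medium (dashed lines), with 1 array per point. The points at 0 min are the end of the 45 min first stress, or the untreated mean for naive cells. GPX2 starts at -3.03 after heat and -1.10 after KCl, and the 3 peroxide series lie between 1.91 and 2.17 at 15 min.

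Peroxide was set against rich medium after the same first stress, to separate what peroxide adds from the release of that stress. After heat, GPX2 read 13.57 and 13.45 in peroxide at 15 and 45 min, against 9.52 and 11.39 in rich medium. After KCl it read 13.83 and 13.32 in peroxide, against 10.99 and 12.20 in rich medium. The groups did not overlap, and the gap was smaller at 45 min than at 15 min in both. The differences were 3.05 ± 0.58 after heat (unadjusted p = 0.00228, adjusted p = 0.319 in limma) and 1.98 ± 0.58 after KCl (unadjusted p = 0.0159, adjusted p = 0.612).

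GRX2 read 13.55 and 13.37 in peroxide after heat, against 12.09 and 11.69 in rich medium, and 13.85 and 13.46 in peroxide after KCl, against 13.02 and 12.13 in rich medium. Peroxide was higher at both times. The differences were 1.57 ± 0.20 (unadjusted p = 0.000258, adjusted p = 0.100 in limma) and 1.08 ± 0.20 (unadjusted p = 0.00179, adjusted p = 0.265). GSH1 stood higher in peroxide than in rich medium by 1.60 and 0.71 at 15 and 45 min after heat, and by 2.16 and 0.39 after KCl. GLR1 stood higher by 0.50 and 0.66 after heat and by 0.40 and 0.79 after KCl.

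After heat GPX1, GRX1 and HYR1 had the smallest gaps of the 8. In peroxide after heat GPX1 exceeded rich medium by 0.26 and 0.41, and after KCl by 0.24 and 1.03. GRX1 was at -0.34 and 0.50 after heat and at 0.20 and 0.28 after KCl. HYR1 lay between -0.10 and 0.26 at these 4 points. GSH2 stood at 0.40 and 0.44 after heat and at 0.56 and 0.25 after KCl. With limma 0 of the 8 genes passed after either first stress, where 0.165% of all genes were called each time. At an unadjusted p under 0.05 there were 4 of 8 both times (GSH1, GLR1, GPX2 and GRX2), where 4.22% and 7.34% of all genes had one. The groups did not overlap for 5 and 6 of 8, where 23.5% and 28.3% of all genes did not overlap. In this fit a gap that changes between 15 and 45 min counts as spread.

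**Figure D4:**
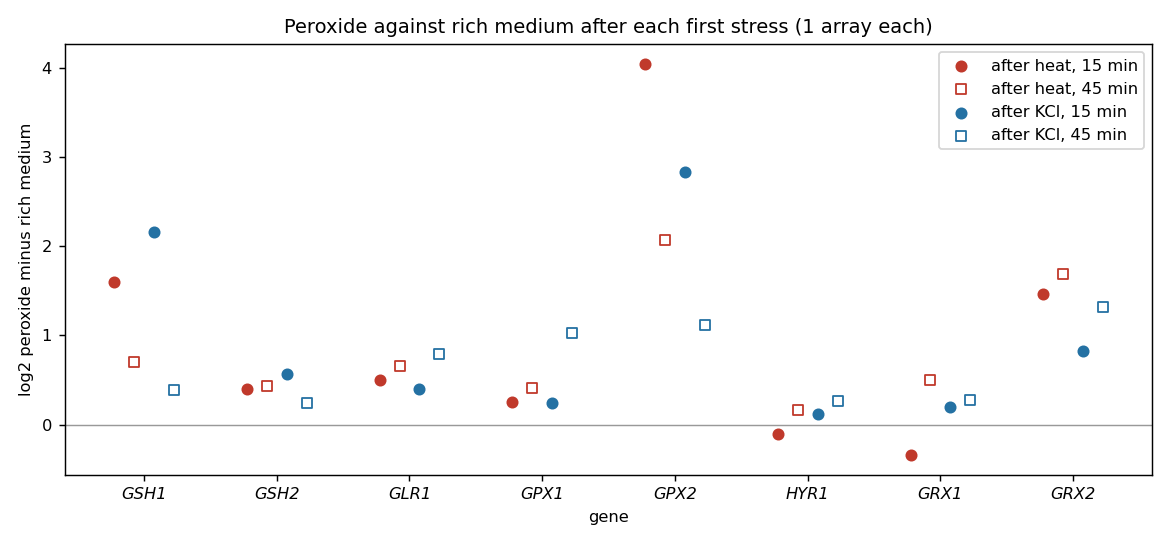
Points give the log2 value in peroxide minus that in rich medium for each gene, after heat or after KCl, at 15 min (filled circles) and 45 min (open squares), with 1 array on each side. GPX2 lies highest at 4.04 after heat at 15 min, and HYR1 lies between -0.10 and 0.26.

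Return to rich medium was compared with untreated cells. With limma 0 of the 8 genes passed after heat or KCl, where 0% of all genes were called, and 1 and 0 of the 8 had an unadjusted p under 0.05, where 5.29% and 7.43% of all genes had one. Change between 15 and 45 min counts as spread in this fit, so it cannot show that levels had returned. GPX2 read 9.52 and 11.39 after heat and 10.99 and 12.20 after KCl at 15 and 45 min, against 11.74 and 11.57 in untreated cells. After heat both arrays were below the untreated pair, by little at 45 min, and after KCl the first was below and the second above it. GPX1 read 8.91 and 7.97 after heat and 9.76 and 7.78 after KCl, against 7.69 and 7.77, so it was above the pair at 15 min and within 0.24 of the untreated mean at 45 min. GRX1 read 12.44 and 11.15 after heat, below the untreated pair at the second time, and 12.52 and 11.54 after KCl, against 11.62 and 11.41. GSH2, the gene with an unadjusted p under 0.05, read 10.84 and 11.09 after heat (-0.64 ± 0.15, unadjusted p = 0.00775, adjusted p = 0.856), against 11.67 and 11.53.

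Across the 22 arrays the 8 genes varied together to very different degrees. The arrays are not independent, since most belong to time courses of 3 peroxide series, so these coefficients are descriptions. The closest pairs were GPX1 with GRX1 (Pearson r = 0.92, Spearman rho = 0.93, n = 22 arrays), GLR1 with GRX2 (0.89 and 0.87) and GSH1 with GPX2 (0.86 and 0.90). GPX2 with GRX1 had r = -0.56 and rho = -0.32. The isoform pairs were less alike, with GRX1 and GRX2 at r = 0.42 (rho = 0.41) and GPX1 and GPX2 at r = -0.43 (rho = -0.20). HYR1 was at r = 0.51 with GPX1 (rho = 0.36) and at r = -0.44 with GPX2 (rho = -0.03).

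For each gene the 3 genes outside the 8 with the highest Pearson r over the 22 arrays were taken. For GSH1 they were YCR102C (0.96), FLR1, a multidrug transporter gene (0.95), and AAD3, an aryl-alcohol dehydrogenase family gene (0.95). For GPX2 they were LYS20, a homocitrate synthase of lysine synthesis (0.97), ISU2, an iron-sulfur scaffold (0.95), and SFH5 (0.92). For GRX2 they were PRX1, the mitochondrial peroxiredoxin (0.98), SOD2, the mitochondrial superoxide dismutase (0.95), and AIM46 (0.94). For GLR1 they were ECM4 (0.97), SOD2 (0.95) and OYE3, an old yellow enzyme (0.95).

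For GPX1 they were EGO4 (0.97), YBR085C-A (0.97) and FMP33 (0.97), and for GRX1 they were ALD2, an aldehyde dehydrogenase (0.96), SDH6 (0.96) and PRC1, vacuolar carboxypeptidase Y (0.95). For HYR1 they were MMS2 (0.95) and the mitochondrial chaperonin genes HSP60 (0.92) and HSP10 (0.90). GSH2 had the lowest likeness, with PDR8 (0.87), TIS11, an mRNA decay factor of iron starvation (0.86), and NMA1 (0.84). A like pattern could come with an unlike range: ECM4 spanned 4.51 and OYE3 6.49 on the log2 scale over the arrays, against 1.0 for GLR1.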

How the data were processed

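Per the submitters' processing notes, the authors used RMA for the deposited log2 expression values per probe set. The version is not given in the sources used here. The other deposited table holds the authors' log2 fold changes against time 0, per the file headers, for 5900 of 10928 probe sets, and was used as an alternative alone. Naming went through the array's annotation table, where 5498 probe sets named 1 gene of the RefSeq R64 gene table, and the brightest was kept for 47 genes with several, leaving 5449. Background was the 95th percentile of the 1746 annotated probe sets naming no gene of that table. No scaling or filter was added.

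Tests were run in limma 3.58.1 (lmFit and eBayes, R 4.3.3), with Benjamini-Hochberg p-values adjusted over 5449 genes, threshold 0.05. Errors are limma standard errors. First stresses used 8 arrays and rich medium against untreated 6, each with a mean per group, so that spread includes change between times. Fits of primed and naive peroxide used 12 arrays and peroxide against rich medium 8, with terms for group and time, where spread is how far group differences vary between times. The fits were also run on simulated data with independent noise. That check does not cover spread that comes from change between times.

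The members, the gene lists and their use were chosen with earlier results of these data known. Named were the 8 members, up to 3 called genes per list with the largest differences, and the 3 most alike genes per member. Alternatives were a further quantile step, a shift of all arrays to a common median, leaving out the dimmest 25% of genes, trend and robust variance, probe set means, a 2-fold minimum, all 22 arrays in 1 fit, other times or arrays, the authors' table, and each array left out. The fit of all 22 arrays had a mean per group over all its times and no time term. Its spread includes the change between times of the peroxide series.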

Additional observations from a re-analysis of the deposited data

Results flagged for a closer look

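GPX2 in heat-primed peroxide had 1 array far from the other 3 of its series: the array at 90 min read 11.95, against 13.45 to 13.75 at the earlier times, and this gap was 0.834 of the whole range of the group. The 4 arrays are 4 times and not repeats, and the arrays at 90 min of the KCl-primed and naive series read 11.88 and 11.88. A total of 24 such groups were looked at, where chance flags about 1 in 20 groups of repeats. The peroxide against rich medium gap did not pass a test of its difference between heat and KCl for any of the 8 genes (limma interaction term, added after seeing the data, adjusted p = 0.9999 for each). There, 0 genes of 5449 passed and 18 had an unadjusted p under 0.05, far fewer than the 1 in 20 that chance alone would give. A gap that changes between times counts as spread in this fit, so the test could hardly pass for any gene. It therefore does not show that the gap was alike after heat and after KCl. GPX2 was at 1.08 ± 0.82 and GRX2 at 0.50 ± 0.28 on the log2 scale, after heat minus after KCl.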

How the results depend on the processing

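The 104 member differences were recomputed under the alternatives, giving 1403 values, of which 52 lost the threshold, 13 gained it, 1 moved by more than the spread and 47, from 20 differences, changed sign. Of those 47 values 0 passed the threshold, and 0 of the 20 differences passed it in the main fit. The one that moved is GPX2 in heat, at -3.15 in the authors' deposited table. Counts of the 8 members called also changed. All 22 arrays in 1 fit gave 3 in KCl against untreated in place of 5, 0 in peroxide against untreated in place of 4 (all 4 peroxide times also gave 0), 3 in KCl against peroxide in place of 5, and 1 in heat against KCl in place of 2. A 2-fold minimum gave 4 in heat against peroxide in place of 7 and 3 in KCl against peroxide. Leaving out the 15 min or the 90 min arrays gave 1 in heat-primed against naive peroxide in place of 0. With 1 array left out, the counts ran from 5 to 5 in heat against untreated, 4 to 5 in KCl against untreated, 2 to 5 in peroxide against untreated, 3 to 6 in heat against peroxide, 3 to 3 in KCl against peroxide, 2 to 3 in heat against KCl and 0 to 1 in heat-primed against naive peroxide, and stayed at 0 in the other 6 comparisons. A lone array left in a group was assumed to vary like the others. GPX1 lies among the dimmest 25% of genes and was not tested without them. Pairing by replicate was not possible because the labels give no replicate number that groups share. Arrays of the same time were matched through the time term of the primed and rich medium fits. The number of arrays limits the precision.

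Sign changes were as follows (log2). A further quantile step gave 0.00083 for HYR1 in KCl against untreated and -0.0050 for GPX2 in heat-primed against KCl-primed peroxide. All 22 arrays in 1 fit gave 0.23 for GRX2 in KCl against peroxide, and -0.11 for HYR1 and -0.055 for GRX1 in peroxide against rich medium after heat. Without 15 min, KCl-primed against naive peroxide gave -0.25 for GPX1, -0.025 for GPX2 and -0.13 for GRX1, and heat-primed against KCl-primed peroxide gave 0.0091 for GSH1 and -0.0096 for HYR1. Without 45 min, GRX1 was at 0.021 in heat-primed and GLR1 at -0.0042 in KCl-primed against naive peroxide. GPX2 in heat-primed against KCl-primed peroxide was at -0.017, -0.040 and -0.018 without 30, 45 and 90 min. With 1 array left out, KCl against untreated ran from -0.072 to 0.18 for GSH2 and from -0.13 to 0.097 for HYR1, and KCl against peroxide from -0.17 to 0.082 for GRX2. Heat against KCl ran from -0.48 to 0.012 for GSH1 and from -0.22 to 0.77 for GPX1. Heat-primed against naive peroxide ran from -0.42 to 0.049 for GRX1. KCl-primed against naive peroxide ran from -0.0091 to 0.029 for GLR1, -0.20 to 0.44 for GPX1, -0.041 to 0.064 for GPX2 and -0.082 to 0.38 for GRX1. Heat-primed against KCl-primed peroxide ran from -0.10 to 0.0070 for GSH1, -0.030 to 0.076 for GPX2 and -0.032 to 0.15 for HYR1. Peroxide against rich medium after heat ran from -0.22 to 0.38 for GRX1 and -0.18 to 0.25 for HYR1. Rich medium against untreated ran after heat from -0.37 to 0.92 for GRX1 and -0.22 to 0.18 for GRX2, and after KCl from -0.65 to 0.14 for GSH1, -0.66 to 0.54 for GPX2 and -0.20 to 0.0085 for HYR1. The cause was not tested.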
